A study of Mus musculus with 12 samples.

Results

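The genes described are 10 that mark fat cells, Adipoq, Cidec, Cfd, Ucp1, Car3, Lipe, Plin1, Lep, Fabp4 and Retn, measured in mouse kidney. They were chosen by name, as the rows of the deposited expression table whose Ensembl identifiers map to these symbols, and all 10 were found among 21899 genes. Fat cells store triglyceride in a lipid droplet coated by perilipins, release it through lipases such as the one encoded by Lipe, and secrete hormones such as adiponectin and leptin into the blood. Brown fat cells, in addition, carry the uncoupling protein Ucp1 in their mitochondria and turn fat into heat. The kidney is not a fat tissue, but fat surrounds it and fills its sinus, and some fat cell genes, Lipe and Fabp4 among them, are also known in other cell types.

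Messenger RNA of kidney tissue was sequenced in 12 libraries, 3 in each of 4 groups. In the db/m-veh group were lean db/m mice given vehicle, and the db/db-veh group held vehicle-treated db/db mice, in which a leptin receptor mutation leads to obesity and diabetes. GABP, a transcription factor with a DNA-binding alpha and a beta subunit, was to be raised in db/m mice (db/m-GABP-OE) and lowered in db/db mice (db/db-GABP-KD). The sources used here do not say how this was done, which cells it reached, or the age and sex of the mice. Kidneys of 6 mice served each group and 3 tissues went into each extraction. Separate pools for 3 libraries would take 9 portions, so pools may share animals, and the sources used here do not say whether the libraries are separate pools at all. The p-values therefore measure the spread between libraries, which may be partly technical. In bulk tissue, fewer cells of a type and less RNA per cell cannot be told apart.

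Values are FPKM as deposited, fragments scaled for a gene's exon length and for the library's total, and whole fragments were recovered from them. Libraries held 6782148 to 9704128 fragments, of which 48% to 86% came from mitochondrially encoded genes. Fragments of all other genes thus ran from 1081305 to 4392532, and a gene at 0 fragments may be present below this depth. Median-of-ratios scaling, which sets level the middle of the 5884 genes above 1 FPKM in every library, gave size factors of 0.53 to 1.71. Over all genes tested, the log2 fold changes had a median of -0.24 between the vehicle groups (db/db over db/m), 0.38 for overexpression and 0.42 for the labelled knockdown, each over its own vehicle group. After scaling the medians were 0.01, 0.04 and 0.00. Library 1 labelled db/db-GABP-KD stood apart, with the lowest mitochondrial share and the highest size factor. Gabpa, the alpha subunit, was at 1.79, 2.32 and 2.54 FPKM in db/m-veh and at 3.45, 3.35 and 3.71 in db/m-GABP-OE. It was at 2.2, 2.17 and 1.63 FPKM in db/db-veh and at 6.62, 2.66 and 3.4 in the libraries labelled db/db-GABP-KD. As deposited, all 3 of these stood above db/db-veh, against the label, as did 17.3% of all genes tested. After scaling, Gabpa was at 2.38, 4.1 and 2.02 in db/db-veh and at 3.86, 3 and 3.71 in the libraries labelled db/db-GABP-KD, so the groups overlapped, and a lower level was still not seen. In db/m-GABP-OE it was above db/m-veh in all 3 libraries as deposited, as were 30.4% of all genes tested. After scaling it was at 2.73, 2.57 and 2.79 there against 1.83, 2.81 and 2.34, so these groups overlapped too. Overexpression is therefore used below as a label, as knockdown is. Neither difference passed the test, with log2 fold changes of 0.57 for overexpression and 0.84 for the labelled knockdown (limma adjusted p = 0.435 and 0.345), and 0.19 and 0.31 after scaling (0.999 and 0.896). Kidney tubule markers were present throughout, with a summed level of 221 to 950 FPKM.

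Promoter sequences are shown for Adipoq, Cfd, Lep, Ucp1 and Lipe, since GABP is known to bind promoters and the results turn on these genes, or, for Lipe, since its window holds the letters of the GABP motif. Each is the 250 bases before the start of transcription in the RefSeq table (GRCm38.p6), read along the gene's strand from 5′ to 3′. Entries were found for 8 of the 10 genes, in 10 windows. Capitals mark any match, on either strand, to 4 motifs: CCGGAAG, the letters bound by GABP and other ETS factors; TTGCGCAA, a palindrome bound by C/EBP factors; AGGTCA, a nuclear receptor site; and CCAAT, the CCAAT box. No motif overlapped another in these windows. The windows are chr16:23146286-23146535 (plus strand) for Adipoq, chr10:79890603-79890852 (plus) for Cfd, chr8:83290098-83290347 (plus) for Ucp1, chr6:29059971-29060220 (plus) for Lep and chr7:25395988-25396237 (minus) for Lipe, the last inside the longer GENCODE gene.
Adipoq: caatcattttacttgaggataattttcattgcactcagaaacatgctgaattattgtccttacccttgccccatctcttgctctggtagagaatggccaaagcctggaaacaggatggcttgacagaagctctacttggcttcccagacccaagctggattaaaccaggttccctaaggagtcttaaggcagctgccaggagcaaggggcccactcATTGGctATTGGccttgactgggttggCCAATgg
Cfd: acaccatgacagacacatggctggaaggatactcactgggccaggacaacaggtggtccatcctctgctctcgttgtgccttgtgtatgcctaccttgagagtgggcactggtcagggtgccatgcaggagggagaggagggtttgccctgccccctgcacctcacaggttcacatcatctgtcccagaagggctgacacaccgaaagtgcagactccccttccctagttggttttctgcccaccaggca
Ucp1: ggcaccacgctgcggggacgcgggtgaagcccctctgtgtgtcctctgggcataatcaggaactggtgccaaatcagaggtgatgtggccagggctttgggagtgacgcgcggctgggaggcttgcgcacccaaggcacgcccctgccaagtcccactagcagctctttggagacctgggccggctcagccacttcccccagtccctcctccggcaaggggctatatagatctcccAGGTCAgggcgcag
Lep: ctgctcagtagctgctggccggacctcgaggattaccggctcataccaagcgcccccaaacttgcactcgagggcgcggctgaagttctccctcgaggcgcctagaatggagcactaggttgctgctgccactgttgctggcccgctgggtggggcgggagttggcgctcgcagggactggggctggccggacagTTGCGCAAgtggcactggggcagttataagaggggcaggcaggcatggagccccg
Lipe: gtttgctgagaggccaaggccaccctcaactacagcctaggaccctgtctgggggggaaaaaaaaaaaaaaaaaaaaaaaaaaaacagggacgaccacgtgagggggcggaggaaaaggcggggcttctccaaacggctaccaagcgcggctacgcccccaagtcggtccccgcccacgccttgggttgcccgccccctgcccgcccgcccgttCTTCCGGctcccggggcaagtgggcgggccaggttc

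The GABP and ETS letters were found in 1 of the 10 windows, the Lipe window shown, 36 bases before that start, and in 6.91% of all 32851 windows of this length. The other Lipe window (chr7:25390113-25390362, minus strand) held none of the 4 motifs. The C/EBP palindrome was found in Lep, 55 bases before the start, and in 0.164% of all windows. AGGTCA was found in Ucp1 (14% of all windows), and CCAAT at 3 places in Adipoq (33.8% of all windows). Cfd held none of the 4. A match describes letters only, and no match says only that these letters are not in this window.

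Among the hormones, adiponectin (Adipoq, ENSMUSG00000022878, chr16:23146536-23158028, plus strand, GRCm38) is made almost only by fat cells. It was at 0 in the 3 db/m-veh libraries, at 2.88, 0.47 and 0.189 FPKM in db/db-veh, at 0.802, 0.672 and 0.843 in db/m-GABP-OE, and at 0.0857, 0.422 and 0 in the libraries labelled db/db-GABP-KD. These values rest on 34, 29 and 6 fragments per group outside db/m-veh. The 3 overexpression libraries lay within 1.26-fold of each other, whereas db/db-veh spanned 15.3-fold, with library 1 holding 27 of its 34 fragments.

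Leptin (Lep, ENSMUSG00000059201, chr6:29060220-29073877, plus strand), the satiety hormone whose receptor is defective in db/db mice, was found in 1 library only. Library 1 of db/db-veh held 11 fragments (0.484 FPKM), and the other 11 libraries held none. The level that 3 fragments over a group would give was 0.0327 to 0.0372 FPKM in the groups at 0. In db/db-veh library 1, Lep made up 28.9% of the fragments of Lep and Adipoq together (11 of 38; exact 95% interval 15.4 to 45.9%). In db/m-GABP-OE the same share was 0 of 29, for which a limit of 3 fragments allows up to 10.3% and the exact 95% interval up to 11.9%. These intervals cover counting error only.

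Adipsin (Cfd, ENSMUSG00000061780, chr10:79890853-79892655, plus strand), complement factor D, is secreted by fat cells and by some immune cells. It was at 0.593, 0.796 and 0.116 FPKM in db/m-veh, at 11, 0 and 0.565 in db/db-veh, at 8.77, 17.2 and 6.06 in db/m-GABP-OE, and at 0, 0.758 and 0 in the libraries labelled db/db-GABP-KD. The overexpression libraries were all above db/m-veh, while db/db-veh had 1 high library and 1 at 0. Resistin (Retn, ENSMUSG00000012705, chr8:3655770-3660110, plus strand), another secreted product of mouse fat cells, did not exceed 3 fragments in any library and ran from 0 to 0.28 FPKM.

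The thermogenic gene Ucp1 (ENSMUSG00000031710, chr8:83290352-83298452, plus strand) was at 0.401, 0 and 0.0654 FPKM in db/m-veh, at 0 in all 3 db/db-veh libraries, at 1.83, 2.96 and 0.783 in db/m-GABP-OE, and at 0.434, 0 and 0 in the libraries labelled db/db-GABP-KD. Every overexpression library was above every other library of the study. Ucp1 and Adipoq were not found in fixed proportion. Ucp1 gave 85 of the 114 fragments of the pair in db/m-GABP-OE (74.6%, exact 95% interval 65.6 to 82.3%), with 73%, 83.9% and 52.4% in its 3 libraries, and 0 of 34 in db/db-veh, for which a limit of 3 fragments allows up to 8.82% and the exact interval up to 10.3%. Most db/db-veh fragments came from library 1, and without it 7 fragments would be left there, too few for a comparison.

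**Figure D1:**
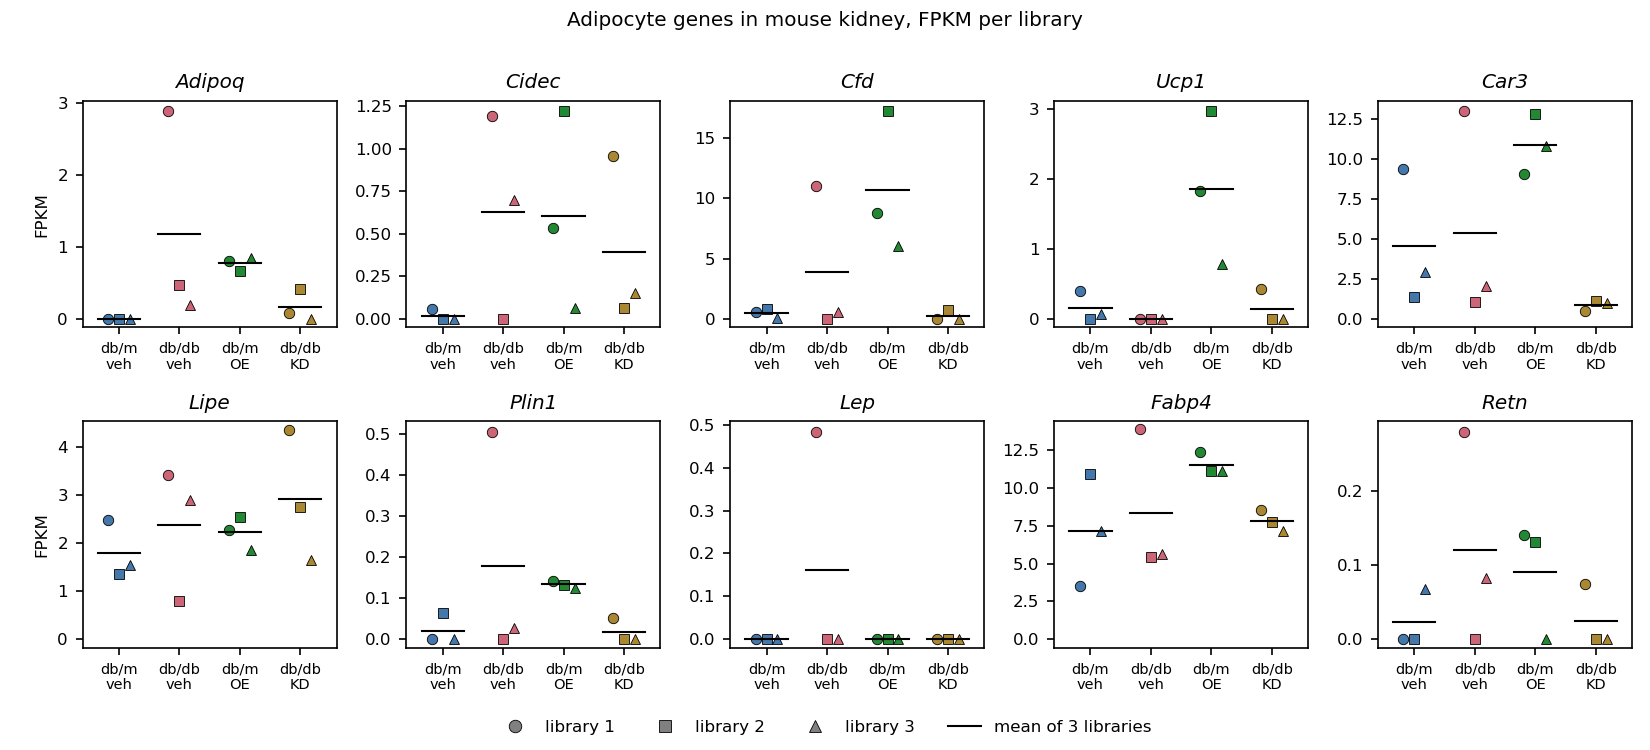
FPKM of the 10 genes (linear vertical axes, 1 panel a gene) in each library, by group, with circles, squares and triangles for libraries 1, 2 and 3 and a bar for the group mean. The overexpression libraries (OE) are the highest for Ucp1, between 0.783 and 2.96 FPKM, and the circle of db/db-veh is the highest for Adipoq, Car3, Plin1, Lep, Fabp4 and Retn.

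Of the lipid droplet genes, Plin1 (ENSMUSG00000030546, chr7:79720218-79732903, minus strand), which coats the droplet and gates lipolysis, had 16 fragments in db/db-veh library 1 and 5 or 6 in each overexpression library (0.125 to 0.143 FPKM), and 2 or fewer in each of the other 8 libraries. Cidec (ENSMUSG00000030278, chr6:113424634-113435760, minus strand), which drives droplet fusion, was at 0.0589, 0 and 0 FPKM in db/m-veh, at 1.19, 0 and 0.701 in db/db-veh, at 0.537, 1.22 and 0.0627 in db/m-GABP-OE, and at 0.957, 0.0628 and 0.153 in the libraries labelled db/db-GABP-KD. The db/m-veh group had the lowest mean, and each other group held both a high and a low library. Lipe (ENSMUSG00000003123, chr7:25379527-25398710, minus strand), hormone-sensitive lipase, was detected everywhere, from 0.794 FPKM in db/db-veh library 2 to 4.36 in library 1 labelled db/db-GABP-KD. Its group means of 1.79, 2.37, 2.22 and 2.92 FPKM lay closer together than the libraries within db/db-veh.

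Cidec and Adipoq did not run in parallel in the library that stood apart. Library 1 labelled db/db-GABP-KD held 15 Cidec fragments but 1 Adipoq fragment. In the same library Plin2, the droplet coat of many cell types, was at 473 FPKM, against 2.73 to 24.6 in the other 11 libraries. Pnpla2, which starts triglyceride breakdown, was at 178 FPKM there against 5.97 to 48.4, and G0s2, its inhibitor, at 118 against 11.8 to 112. After scaling Plin2 (276) and Pnpla2 (104) were still the highest there, but G0s2, at 68.7, was below db/db-veh library 3 (139). Plin2, Pnpla2 and G0s2 are not fat cell specific, and Lep was at 0 there and Plin1 at 2 fragments.

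**Figure D2:**
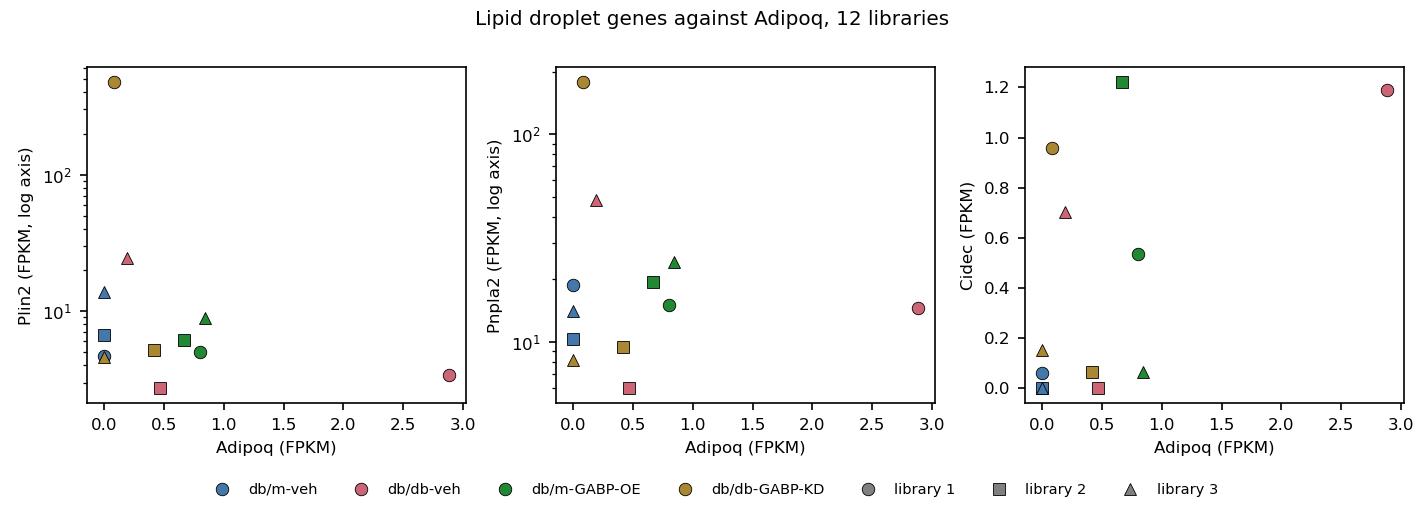
Plin2 and Pnpla2 (log vertical axes) and Cidec (linear axis) against Adipoq, in FPKM, 1 point a library, with colour for the group and shape for the library number. Library 1 labelled db/db-GABP-KD is high for Plin2 (473 FPKM), Pnpla2 (178) and Cidec (0.957) at 0.0857 FPKM of Adipoq, and db/db-veh library 1 has the most Adipoq (2.88) with 3.4 FPKM of Plin2.

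The carrier Fabp4 (ENSMUSG00000062515, chr3:10204088-10208576, minus strand), which binds fatty acids in fat cells and in endothelium and macrophages, and the carbonic anhydrase Car3 (ENSMUSG00000027559, chr3:14863512-14872523, plus strand), abundant in fat and slow muscle, had the highest group means of the 10 genes together with Cfd. Fabp4 was at 3.51, 10.9 and 7.13 FPKM in db/m-veh, at 13.9, 5.43 and 5.63 in db/db-veh, at 12.4, 11.1 and 11.1 in db/m-GABP-OE, and at 8.54, 7.73 and 7.13 in the libraries labelled db/db-GABP-KD. Car3 was at 9.39, 1.38 and 2.92 FPKM in db/m-veh, at 13, 1.04 and 2.04 in db/db-veh, at 9.04, 12.8 and 10.8 in db/m-GABP-OE, and at 0.496, 1.1 and 0.993 in the libraries labelled db/db-GABP-KD. For Car3, 1 library in each vehicle group reached the overexpression levels, and the libraries labelled knockdown were low throughout.

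In the order of group means, db/m-GABP-OE was the highest for Cfd, Ucp1, Car3 and Fabp4, db/db-veh for Adipoq, Cidec, Plin1, Lep and Retn, and the group labelled db/db-GABP-KD for Lipe. Most neighbours in these orders overlapped. Those that did not are listed as a description, since the same values set the order, with the share of all genes tested that were apart in the same way. They were db/m-GABP-OE above the group labelled knockdown for Adipoq (20.9%), that group above db/m-veh for Cidec (9.0%), db/m-GABP-OE above db/m-veh for Ucp1 and for Plin1 (30.4%), and db/m-veh above the group labelled knockdown for Car3 (4.07%). The Cidec case rests on 1 fragment in each of the closest libraries. Summed over the 10 genes, the level was 11.8 to 16.4 FPKM in db/m-veh and 31.6 to 48.8 in db/m-GABP-OE. In db/db-veh it was 46.7, 7.74 and 12.1, and 9.92 to 15 in the libraries labelled db/db-GABP-KD. Thus only 1 of the 3 db/db-veh libraries reached the overexpression range.

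Lean kidney labelled db/m-GABP-OE was compared with lean vehicle kidney. Gabpa was not called higher there, as deposited or after scaling, so overexpression is named by the label only. Ucp1 and Cfd were higher and passed the test, and the other 5 genes tested did not. Tests were run with limma on log2(FPKM + 0.5) over 12897 genes with at least 0.3 FPKM in 3 or more libraries, which 7 of the 10 genes passed (not Plin1, Lep and Retn). A gene that passes through the group where it is high enters with that difference, so the 7 are not all members. Ucp1 is such a gene, as it reached 0.3 FPKM in fewer than 3 libraries outside db/m-GABP-OE. Its call, the count of calls and the middle values of the 7 therefore only describe these values. The calls were 2 of 7, beside 1.90% of all genes tested, and 0 of 7 after scaling, beside 0.209%. A pseudocount of 0.5 makes the fold changes of low genes smaller than they are in FPKM.

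Ucp1 rose from 0.155 ± 0.215 to 1.86 ± 1.09 FPKM (SD, n = 3 libraries each), a log2 fold change of 1.78 (SE 0.34, limma adjusted p = 0.0131). By fragments, 85 against 7, the ratio was 11.2 (95% counting interval 5.23 to 28.8). Cfd rose from 0.502 ± 0.349 to 10.7 ± 5.82 FPKM, a log2 fold change of 3.42 (SE 0.79, limma adjusted p = 0.0355), and 275 against 11 fragments gave a ratio of 23.1 (12.7 to 46.9). Both calls ended under median-of-ratios scaling, at 1.51 (limma adjusted p = 0.0868) and 3.01 (0.238). The Cfd call also ended without any 1 of the 6 libraries compared (adjusted p 0.0605 to 0.174), and that of Ucp1 without db/m-veh library 2 or 3 or db/m-GABP-OE library 2 (0.073 to 0.0862). Over all alternatives Ucp1 was called in 13 of 21 and Cfd in 10 of 22.

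Adipoq had 29 fragments against 0 in db/m-veh, and was 8.95-fold higher with that whole group set at a limit of 3. This ratio leaves out the counting error of the 29. The Adipoq log2 fold change of 1.34 (SE 0.42) had a limma adjusted p of 0.12. It passed in a fit of the 2 groups alone (0.0057) and without db/db-veh library 1 (0.0195), which enters this comparison only through the shared spread. Car3 had a log2 fold change of 1.5 (95% interval 0.12 to 2.88), Cidec of 0.95 (-0.00 to 1.90), Fabp4 of 0.78 (-0.13 to 1.69) and Lipe of 0.27 (-0.60 to 1.15), with limma adjusted p of 0.286 to 0.734. After scaling Lipe was at -0.07. All 3 overexpression libraries lay above all 3 db/m-veh libraries for 6 of the 10 genes, Adipoq, Cidec, Cfd, Ucp1, Plin1 and Fabp4, but so did 30.4% of all genes tested. After scaling, 4 of the 10 genes did, Adipoq, Cfd, Ucp1 and Plin1, beside 9.72% of all genes tested. Ranked by log2 fold change, the middle of the 7 genes was 1.34, beside 0.38 for all genes, and after scaling 1.09 beside 0.04. These middle values leave out Plin1, Lep and Retn and include Ucp1, which passed the filter through db/m-GABP-OE, so they are a description. For Plin1, an exact permutation test gave p = 0.1, the smallest that 3 against 3 allow.

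**Figure D3:**
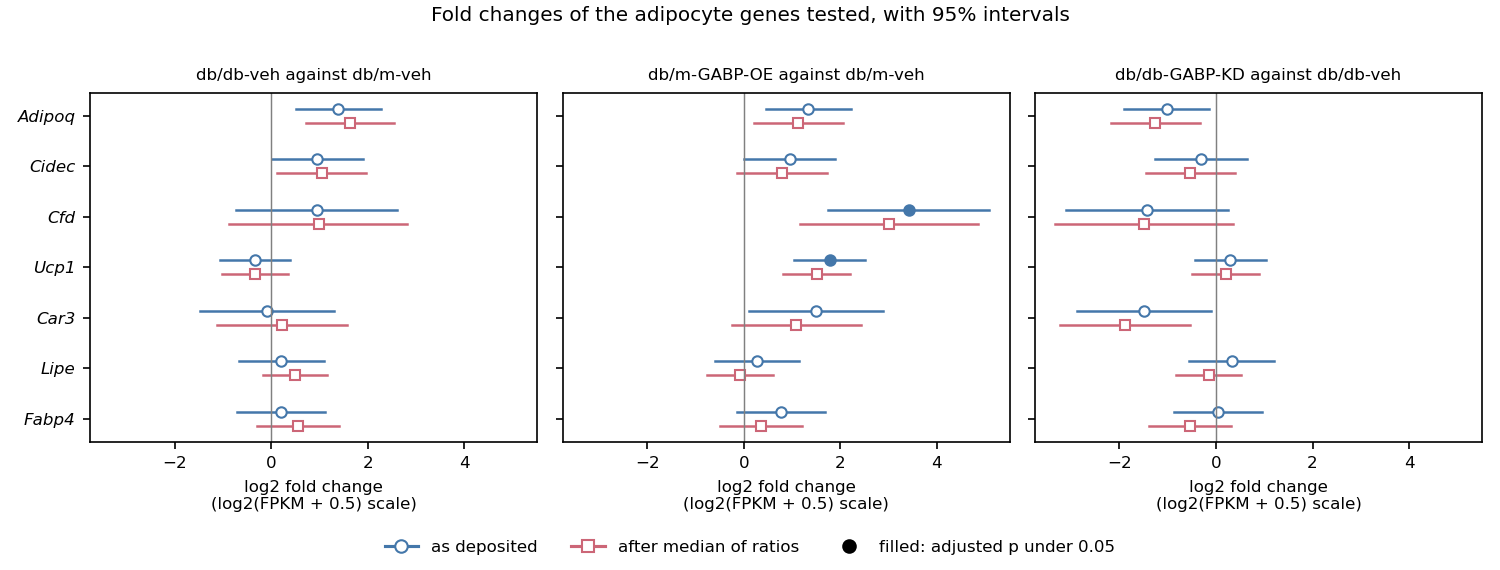
Log2 fold changes (horizontal axes, log2(FPKM + 0.5) scale) of the 7 genes tested in 3 comparisons, with 95% intervals from limma, as deposited (circles) and after median-of-ratios scaling (squares), filled where the adjusted p is under 0.05. The filled points are Cfd (3.42) and Ucp1 (1.78) under overexpression, both as deposited.

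Other white fat cell genes had a median near that of all genes in the same comparison. Of the 25 listed, 23 were tested and 0 passed, with a median log2 fold change of 0.44 beside 0.38 for all genes. Lpl, which frees fatty acids from blood lipids, was at 44, 85.8 and 73.6 FPKM in db/m-GABP-OE and at 82.8, 11.6 and 9.53 in db/m-veh, so that 1 vehicle library reached the overexpression range. Of the 15 brown fat genes, 9 were tested and 2 were called, beside 1.90% of all genes tested. They were Ucp1 and Cox8b, a respiratory subunit of brown fat and muscle. Cox8b was at 1.54, 0.859 and 1.94 FPKM in db/m-GABP-OE (5, 3 and 6 fragments), and at 0 in all db/m-veh and db/db-veh libraries. With db/m-veh set at 3 fragments, Cox8b was 4.32-fold higher, leaving out the counting error of its own fragments. Its fitted log2 fold change of 1.92 (limma adjusted p = 0.00188) depends on the pseudocount, and it passed after scaling too (1.65, 0.018). It did not pass with FPKM set to an equal sum without mitochondrial genes (0.0515) or with voom on fragments (0.153). The median log2 fold change of the 9 was 0.85 (0.58 after scaling), with 8 of 9 above the all-gene median. Ucp1, Cox8b, Cidea and Slc36a2 reached 0.3 FPKM in fewer than 3 libraries outside db/m-GABP-OE. They passed the filter through the group where they are high, so the median, the count and the calls only describe these values. Among the brown fat genes without a call, Slc36a2, an amino acid transporter, had 33 fragments in db/m-GABP-OE against 0 in db/m-veh, and Cidea, a droplet protein of brown fat, 27 against 5. Zic1, a brown fat lineage gene, was at 0 in all 12 libraries, and Ebf2 and Cpt1b were also at 0 in db/m-GABP-OE.

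**Figure D4:**
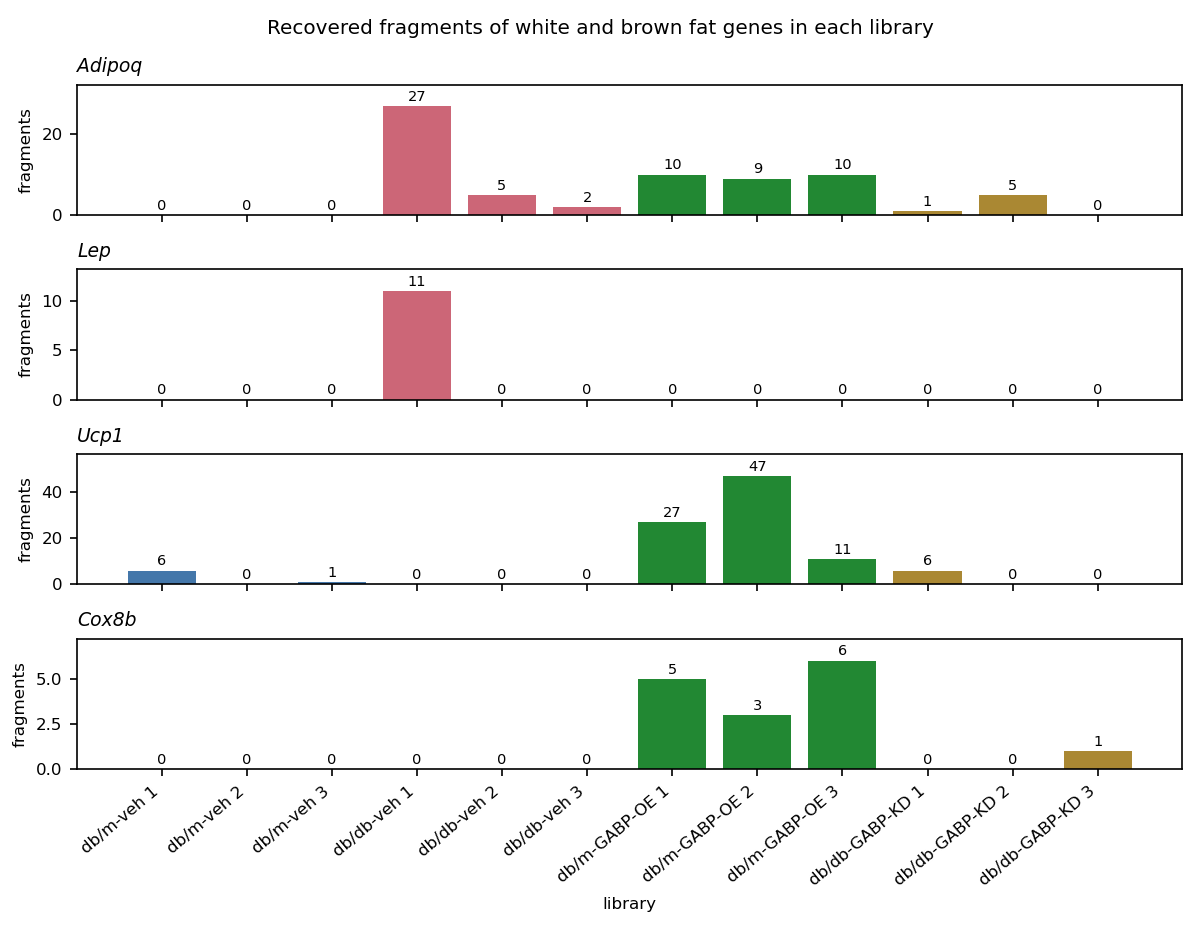
Recovered fragments (vertical axes, from 0) of Adipoq, Lep, Ucp1 and Cox8b in each of the 12 libraries, coloured by group. Lep is seen in db/db-veh library 1 only (11 fragments), and Ucp1 (27, 47 and 11) and Cox8b (5, 3 and 6) are highest in the 3 db/m-GABP-OE libraries and at 0 in db/db-veh.

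Around the pathway, 1 of 9 fatty acid synthesis genes rose in db/m-GABP-OE, the desaturase Scd1, from 1.43 ± 0.345 to 9.03 ± 2.3 FPKM (limma adjusted p = 0.0126). Of the 4 receptor genes for leptin and adiponectin, 1 rose, Lepr, from 1.15 ± 0.324 to 4.77 ± 0.876 FPKM (limma adjusted p = 0.0386), and it was at 1.3 ± 0.709 FPKM in db/db-veh. Both counts stand beside 1.90% of all genes tested. Neither gene passed after scaling (limma adjusted p = 0.177 and 0.48), beside 0.209%.

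Some markers of other cell types were called in the same comparison, among them macrophage, lymphocyte and stromal genes. Summed macrophage markers were 134, 195 and 243 FPKM in db/m-GABP-OE against 31.1 to 36 in db/m-veh, and 3 of the 9 tested were called (C1qa, C1qc and Mrc1). C1qa, a complement subunit made by tissue macrophages, went from 5.95 ± 2.08 to 44 ± 12.8 FPKM (limma adjusted p = 0.0429), and the median of the 9 was 1.95 on the log2 scale (1.52 after scaling). Lymphocyte markers summed to 5.18 to 11.7 FPKM against 1.89 to 2.67 (2 of 5 called, Cd2 and Cd3g), adipose stromal and progenitor markers to 134 to 285 against 85.8 to 126 (1 of 9, Mfap5), and endothelial markers to 161 to 233 against 90.4 to 114 (0 of 10, with a median log2 fold change of 0.53, and 0.11 after scaling). The calls stand beside 1.90% of all genes tested. None of these calls was kept after scaling, beside 0.209%. The sums are as deposited, where 30.4% of all genes tested had all 3 db/m-GABP-OE libraries above all 3 db/m-veh libraries. Neutrophil genes summed to 1.91 to 3.85 FPKM against 1.55 to 5.11 (0 of 3 called), and red blood cell genes to 303 to 948 against 584 to 1188 (0 of 7). Skeletal muscle genes summed to 3.24 to 5 FPKM against 2.05 to 2.94 (0 of 2 called). Most of these sums came from the 2 genes tested, Pygm (group means of 3.43 against 1.77 FPKM) and Mylpf (0.692 against 0.601). Of the other muscle genes, Myh1 had 5 fragments, Tnnt3 4 and Ckm 2 in db/m-GABP-OE against 0 in db/m-veh, while Acta1 was at 0 in both groups. In db/db-veh and the group labelled db/db-GABP-KD, Tnnt3 had 7 and 5 fragments, Acta1 3 and 7, Ckm 0 and 2, and Myh1 0 in both. Myh2, Myh4 and Tnnc2 were at 0 in all 12 libraries, and the adrenal genes Cyp11a1, Cyp11b1, Cyp11b2 and Cyp21a1 were also at 0 in all 12. The part of these markers in the results for Ucp1 and Cfd was not tested.

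**Figure D5:**
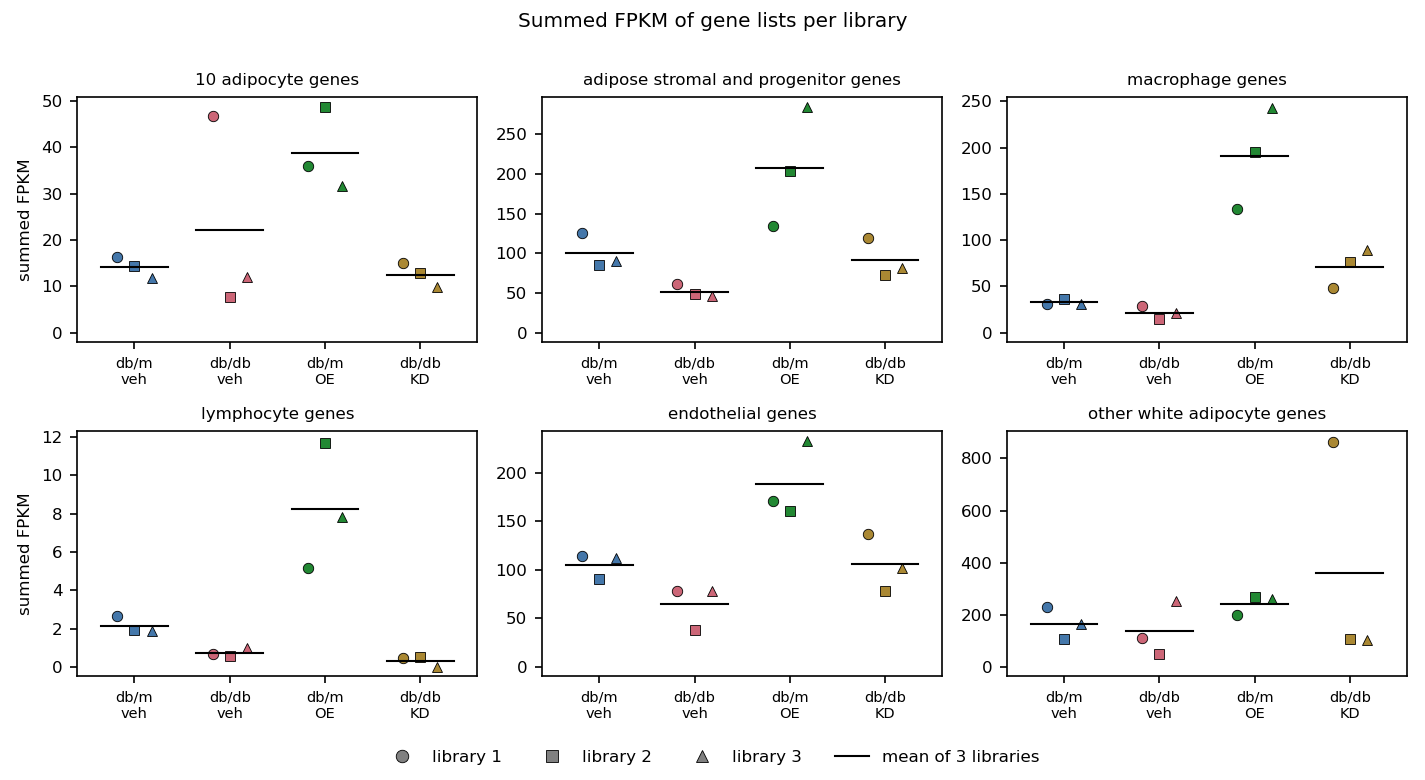
Summed FPKM per library (vertical axes, linear) of the 10 fat cell genes and of 5 marker lists, by group, with the bar at the group mean. In the 3 db/m-GABP-OE libraries the sums of macrophage (134 to 243) and lymphocyte genes (5.18 to 11.7) are the highest of the study. The sum of the list of other white fat cell genes peaks at 863 in library 1 labelled db/db-GABP-KD. Most of that sum is Plin2 (473), Pnpla2 (178) and G0s2 (118), which are not fat cell specific.

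Obese diabetic kidney was next compared with lean kidney, both under vehicle. None of the 7 genes tested passed, beside 0.0930% of all genes, 12 genes. This comparison shares its db/m-veh libraries with the one above. By fragments, with db/m-veh set at 3 and counting error in db/db-veh left out, Adipoq was 12.9-fold higher. It was at 1.18 ± 1.48 FPKM against 0, with a log2 fold change of 1.39 (SE 0.42, unadjusted p = 0.0041 in the limma fit, adjusted p = 0.245). It was the single gene of the 10 with all db/db-veh libraries above all db/m-veh libraries, beside 1.46% of all genes tested, and it remained so after scaling (8.30%). Its size rested on library 1: without it the log2 fold change was 0.71 (limma adjusted p = 0.301). Cfd, at 3.87 ± 6.21 against 0.502 ± 0.349 FPKM, went from 0.94 to -0.39 without that library, Fabp4 from 0.20 to -0.22 and Lipe from 0.20 to -0.10.

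Library 1 of db/db-veh held 9 of the 10 genes and was the highest of all 12 libraries for 6 of them. Its summed macrophage markers (28.4 FPKM), stromal markers (60.9) and endothelial markers (78) stayed below every overexpression library. Its summed fat cell genes (46.7 FPKM) lay within the overexpression range as deposited, and above it after scaling (50.5 against 23.8 to 37.4). Ucp1 was listed at 0 there, and Cox8b too. For Ucp1, db/db-veh had 0 fragments against 7 in db/m-veh, 6 of them in db/m-veh library 1, and the log2 fold change of -0.34 did not pass (limma adjusted p = 0.757).

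The group labelled db/db-GABP-KD was compared with db/db-veh, which is also the second group of the vehicle comparison. Gabpa was not lower in this group, as deposited or after scaling, so directions here are those of the labels only. No gene passed, 0 of 7 beside 0% of the 12897 tested (limma; 1839 genes at unadjusted p under 0.05, and 5 called after scaling). Adipoq was at 0.169 ± 0.223 against 1.18 ± 1.48 FPKM, a log2 fold change of -1.02 (95% interval -1.91 to -0.14, limma adjusted p = 0.345). Without db/db-veh library 1 it was -0.34, and without library 1 labelled db/db-GABP-KD -0.95. Car3 was at 0.862 ± 0.322 against 5.35 ± 6.62 FPKM (log2 fold change -1.49, -2.87 to -0.11, limma adjusted p = 0.345), and at -0.57 and -1.28 without the same 2 libraries in turn. As deposited, 0 of the 10 genes had all 3 libraries below db/db-veh, beside 0.822% of all genes tested, and after scaling Car3 did, beside 5.67%. Fabp4, at 7.8 ± 0.711 against 8.33 ± 4.85 FPKM, had a log2 fold change of 0.04 (-0.87 to 0.95) and of -0.53 after scaling. Lipe went from 0.33 to -0.15 after scaling.

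The effect of overexpression was also compared with that of the labelled knockdown, by the difference of the log2 fold changes. None of the 7 genes passed, beside 0.132% of all genes tested. The largest differences were 4.85 for Cfd (SE 1.12, limma adjusted p = 0.153, and 0.0389 without db/db-veh library 2), 2.99 for Car3 (SE 0.92, adjusted p = 0.424) and 2.37 for Adipoq (SE 0.59, adjusted p = 0.245), on the log2 scale. The middle value of the 7 genes was 1.48, beside -0.05 for all genes. It is the value of Ucp1, which passed the filter through db/m-GABP-OE, so it is a description. Both parts rest on different vehicle groups, and db/db-veh library 1 enters the second.

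The 10 genes did not move as 1 block across the libraries. The correlation of each gene with the mean of the other 9, on log2(FPKM + 0.5) over the 12 libraries, ran from 0.38 for Lipe to 0.93 for Cfd. Ucp1 was at 0.56 and Lep at 0.50, and after scaling at 0.38 and 0.62. The genes outside the list that were most like the mean of the 10 were Ints7, Zfp711 and Ushbp1 (r = 0.93), then Grhl2, Cdc7, Tia1, Shroom1 and Zfp85 (0.91). The libraries share depth and mitochondrial share across all genes, and after scaling Ints7 stood at 0.53 and Cdc7 at 0.88. These correlations describe 12 libraries in 4 groups and carry no test.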

How the data were processed

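The authors deposited 1 table of FPKM values for 12 mouse kidney libraries of poly(A) RNA, read from both ends on Illumina machines, per the labels' protocols. Per the submitters' processing notes, HTSeq and the build GRCm39 were used; aligner, annotation and strand setting are not stated. GENCODE M21 exon lengths (GRCm38) turned the values into whole fragments (within 0.05) for 21423 genes, 98.3% of the 21795 with a symbol and length, so coordinates are GRCm38, a build other than the one in the notes. Whole values made up 98.0% to 98.2% in each library. PCR copies were not marked, so counting intervals and the limit of 3 fragments cover counting error only. Pairs of libraries of a group differed by a chi-square of 7.37 to 152 per degree of freedom, where counting noise alone gives about 1, so none was a copy.

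limma 3.58.1 in R 4.3.3 was run on log2(FPKM + 0.5) with 1 mean per group, all 12 libraries, a variance trend, two-sided tests and Benjamini-Hochberg adjustment over the 12897 genes that reached 0.3 FPKM in 3 or more libraries, called at adjusted p under 0.05. Alternatives were pseudocounts of 0.1 and 1, median of ratios (5884 genes), no filter, a stricter filter of 1 FPKM, an equal sum without the 13 mitochondrial genes, fits of 2 groups, a replicate block, voom on fragments, and each library left out; median of ratios with no filter was added after seeing the data. All 10 fat cell genes are named. From each other list the called genes and up to 4 of the most abundant could be named. The genes at 0 in a list were named after their values were seen, as were Slc36a2, Cidea, Myh1, Tnnt3, Ckm, Acta1, Pi16, Dlk1, Dpp4, and Cidec beside Plin2. The genes, the lists and the motifs were chosen with earlier results of these data known. The fit was tested on simulated data, with changes planted only in genes with many fragments and with the same composition in every library. That test does not cover genes with few fragments or the differing mitochondrial shares seen here. Other steps used Python 3.11.15 with scipy 1.17.1, numpy 2.4.6, pandas 2.3.3 and, for plots, matplotlib 3.10.9.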

Additional observations from a re-analysis of the deposited data

Results flagged for a closer look

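Slc12a1, the salt cotransporter of the thick ascending limb and one of the kidney tubule markers, lay on opposite sides of its vehicle group under the 2 labelled treatments in every library, as deposited. It was at 115, 108 and 92.6 FPKM in db/m-GABP-OE, all above db/m-veh (51.6, 61.3 and 46.9), and at 19, 9.83 and 17.9 in the libraries labelled db/db-GABP-KD, all below db/db-veh (89.2, 27.6 and 48.8). Of all genes tested, 30.4% were apart in the first way and 0.822% in the second. Slc12a1 was flagged by these same values, so its separation and p-values are a description. The 2 log2 fold changes differed by 2.67 (SE 0.63, limma adjusted p = 0.185), and by 2.83 after median-of-ratios scaling (SE 0.47, adjusted p = 0.0394). After scaling, db/m-GABP-OE (69.6 to 90.7) overlapped db/m-veh (43.2 to 74.3), with a log2 fold change of 0.54 (limma adjusted p = 0.894), and the labelled knockdown was at -2.29 (0.0232).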

How the results depend on the processing

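Of 793 recomputed values for 37 gene results, 666 kept their direction and side of the threshold, 93 lost a call, 3 gained one and 31 changed sign. All sign changes were in genes without a call. For Car3 between the vehicle groups (-0.09) the value was 0.21 after median of ratios, with or without the filter, and 0.52 with an equal sum without mitochondrial genes. Lipe was at -0.07, -0.07 and -0.17 under overexpression (0.27), at -0.15, -0.15 and -0.25 under the labelled knockdown (0.33), and at 0.08 each time in the difference of effects (-0.05). Fabp4 under the labelled knockdown (0.04) was at -0.53, -0.53 and -0.65. With libraries left out in turn, between the vehicle groups Car3 ran from -1.01 to 0.57, Cfd from -0.39 to 1.87, Fabp4 from -0.22 to 0.54 and Lipe from -0.10 to 0.70. Under the labelled knockdown Cidec ran from -0.81 to 0.07, Fabp4 from -0.18 to 0.46 and Lipe from -0.17 to 0.63, and the Lipe difference of effects from -0.35 to 0.44.

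Counts of called genes moved more. Between the vehicle groups (12 genes) they were 2 with no filter, 22 after median of ratios, 35 with the equal sum, 19 in a fit of 2 groups, 5 with voom and 3 with median of ratios and no filter, and 2 (without db/db-veh library 1) to 48 (without library 1 labelled db/db-GABP-KD) with libraries left out. For overexpression (245 genes, 238 higher) they were 62 with a pseudocount of 0.1, 159 with a filter of FPKM 1, 27 after median of ratios (21 higher), 15 with the equal sum, 590 in a fit of 2 groups, 71 with voom and 33 with median of ratios and no filter, and 39 (without db/m-veh library 3) to 559 (without library 1 labelled db/db-GABP-KD). For the labelled knockdown (0 genes) they were 1 with no filter, 5 after median of ratios and 6 with the equal sum, and 0 to 4. For the difference of effects (17 genes) they were 7 with no filter, 10 after median of ratios, 7 with the equal sum, 2 with voom and 0 with median of ratios and no filter, and 1 (without db/m-veh library 3) to 40 (without db/m-veh library 1). The cause was not tested.

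Same-numbered libraries correlated at -0.48 to 0.38 in their deviations from the group means, so the numbers were not taken as pairs. With the replicate number as a block the counts were 13, 277, 0 and 11. Low fragment counts limit Adipoq, Lep, Plin1, Retn and Cox8b most, and with 3 libraries a group an exact test cannot go below 0.1.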
